A study of Mus musculus with 7 samples.

Results

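The 21 genes described here were those whose transcripts stood higher in thymus of Ikaros ZnF1-/- mice than in wild type thymus, without standing higher in thymus of Ikaros ZnF4-/- mice. They were picked from 16734 genes by their own values in RPKM, a read number scaled to the length of a gene's exons and to the reads of the library. A gene was taken when the mean of both ZnF1-/- libraries was at least 1.5 RPKM, the lower ZnF1-/- library was at least 1.3 times the highest wild type library, and the mean of both ZnF4-/- libraries did not exceed the highest wild type library. Sema4g and Cd79b met these conditions and were left out by name, as were names starting with Hist, although no such name met them. All 3 groups entered the choice, so differences between them are descriptions here and carry no test.

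Polyadenylated RNA of cell suspensions from whole thymus was sequenced in 7 libraries, all from mice 4 weeks old. The groups were wild type C57BL/6 (3 libraries, replicates 1, 2A and 2B), Ikaros ZnF1-/- (2 libraries, replicates 1 and 2) and Ikaros ZnF4-/- (2 libraries, replicates 1 and 2), and the genetic background of the mutants was not given in the sources used here. Replicate 1 of each group was read at 76 bp and the others at 50 bp on another instrument. The number of reads per library is unknown, because the table holds RPKM alone.

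Ikaros, the product of Ikzf1, is a zinc finger protein of the lymphoid lineage that binds DNA with a cluster of fingers near its amino terminus and pairs with itself and its relatives through fingers at the other end. In ZnF1-/- and ZnF4-/- mice the exon for the first or the fourth of the DNA-binding fingers is removed, while the rest of the protein is still made. The middle fingers carry most of the contact with the GGGAA core of its sites, and the outer fingers modulate which sites are bound. In the thymus Ikaros is known to restrain proliferation, Notch target genes and genes of other lineages.

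Of the 9809 genes with a ZnF1-/- mean of 1.5 RPKM or more, 100 met the 1.3 ratio in ZnF1-/-. In 77 of them the ZnF4-/- mean lay above the highest wild type library, and in 49 of those both ZnF4-/- libraries were also 1.3 times that library or more. The remaining 23 were the 21 genes and the pair left out by name. The same rule with the mutants exchanged took 359 genes, and the mirrored rule, for genes lower in ZnF1-/- and not in ZnF4-/-, took 45. The nearest genes inside the 1.3 limit were Rps4y2 at a ratio of 1.31, Lcn4 at 1.37 and Ppt1 at 1.37. The nearest outside it were Otud1, at 7.69 RPKM in the lower ZnF1-/- library against 5.92 in the highest wild type library, BC046404 at a ratio of 1.29 and Pde4b at 1.29.

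Most of the 21 were genes of low level in wild type thymus. Their wild type means ran from 0.01 to 65.1 RPKM with a median of 2.13, against a median of 9.83 over the 10498 genes that were tested, those averaging 1 RPKM or more over the 7 libraries. Of the 21, 8 had a wild type mean under 1 RPKM, 10 lay between 1 and 5, 2 between 5 and 10 and 1, Ppt1, above. By RefSeq type 17 were protein-coding, 2 were long non-coding RNAs, 1 was a microRNA and 1 a transcribed pseudogene. The ratio of the ZnF1-/- mean to the wild type mean was lowest in Ppt1 at 1.43 and, Mir32 apart, reached 7.09 in Crispld2. Its median was 2.08 over all 21, with Mir32 counted as the highest. The size of the Mir32 ratio was not read, since Mir32 was listed at 0 in 2 of the 3 wild type libraries. In bulk thymus RNA, more cells that carry a transcript and more of it per cell cannot be told apart.

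**Figure D1:**
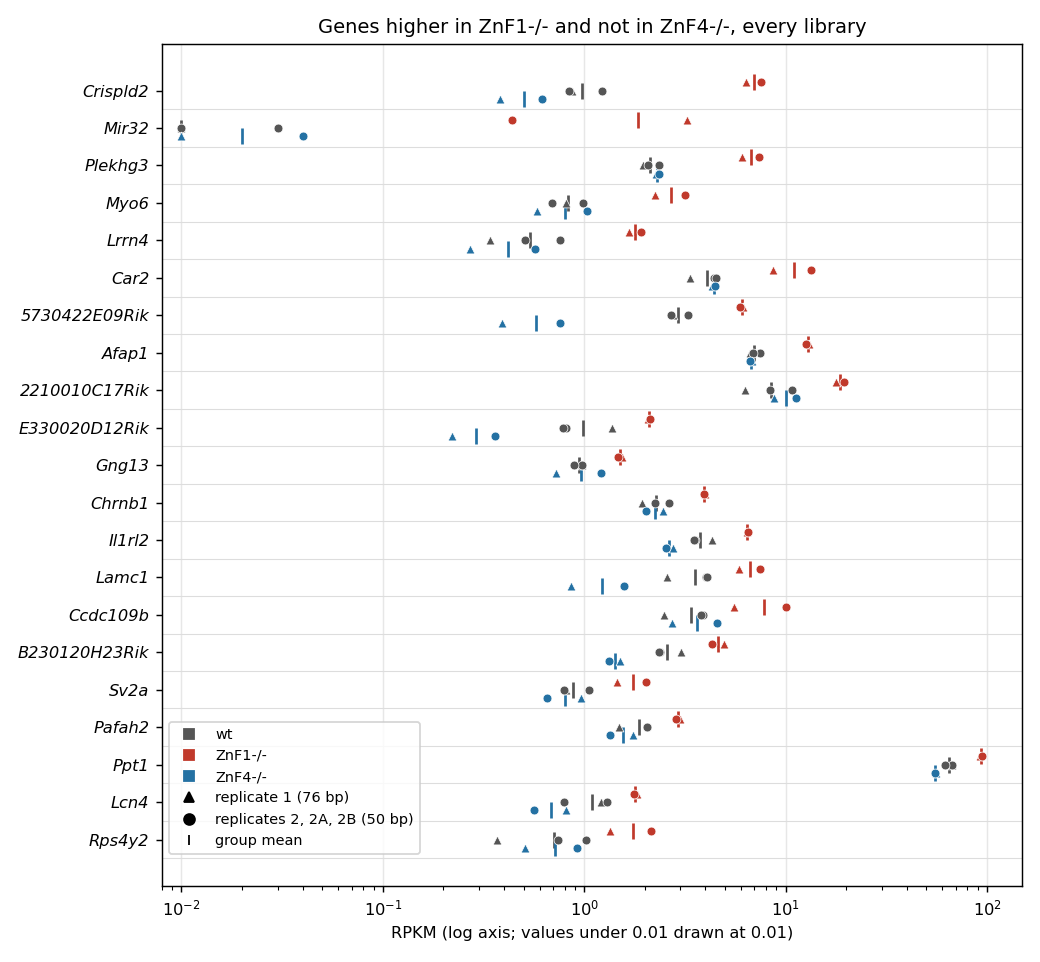
RPKM (log axis) of each of the 21 genes in each of the 7 libraries, coloured by group. Genes are ordered by the lower ZnF1-/- library over the highest wild type library, with very low wild type values raised to a floor for the ordering. Both ZnF1-/- points lie to the right of every wild type point for each gene, as the rule required. Most ZnF4-/- points range from among the wild type points to well below them, and in 5 genes 1 ZnF4-/- point lies above every wild type point.

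The promoters of 4 genes are shown because these genes lead the set by that ratio among those with a RefSeq promoter. Each is the RefSeq window of 250 bases before to 50 after the annotated start on build GRCm38.p6, read 5′ to 3′ on the gene's strand. Capitals mark every GGGAA or its reverse complement TTCCC, lengthened by 1 base where the full Ikaros core TGGGAA or TTCCCA is present. The windows are chr8:119992188-119992487 on the plus strand for Crispld2, chr9:80164784-80165083 on the plus strand for Myo6, chr2:132880813-132881112 on the minus strand for Lrrn4 and chr5:149181987-149182286 on the minus strand for 5730422E09Rik.
Crispld2: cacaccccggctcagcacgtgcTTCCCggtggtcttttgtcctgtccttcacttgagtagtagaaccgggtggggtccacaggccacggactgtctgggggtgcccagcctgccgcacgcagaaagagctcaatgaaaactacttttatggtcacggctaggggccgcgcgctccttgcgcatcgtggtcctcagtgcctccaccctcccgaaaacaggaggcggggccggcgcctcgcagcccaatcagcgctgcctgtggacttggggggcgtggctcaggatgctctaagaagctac
Myo6: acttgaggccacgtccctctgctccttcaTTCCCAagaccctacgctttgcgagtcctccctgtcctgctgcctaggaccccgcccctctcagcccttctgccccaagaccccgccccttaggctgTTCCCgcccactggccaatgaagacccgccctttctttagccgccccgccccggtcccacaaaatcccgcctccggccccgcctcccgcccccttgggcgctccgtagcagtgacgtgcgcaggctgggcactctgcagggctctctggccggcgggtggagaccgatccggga
Lrrn4: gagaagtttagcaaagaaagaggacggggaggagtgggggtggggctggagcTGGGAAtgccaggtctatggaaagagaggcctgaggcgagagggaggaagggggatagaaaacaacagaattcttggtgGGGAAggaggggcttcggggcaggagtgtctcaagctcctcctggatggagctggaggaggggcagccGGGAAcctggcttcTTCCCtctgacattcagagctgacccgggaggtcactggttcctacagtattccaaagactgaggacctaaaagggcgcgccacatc
5730422E09Rik: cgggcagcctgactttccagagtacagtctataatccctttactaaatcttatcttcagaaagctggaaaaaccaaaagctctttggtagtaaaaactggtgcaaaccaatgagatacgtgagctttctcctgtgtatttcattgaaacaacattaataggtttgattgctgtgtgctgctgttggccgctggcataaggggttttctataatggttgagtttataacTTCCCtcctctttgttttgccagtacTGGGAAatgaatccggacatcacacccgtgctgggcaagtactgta
The Crispld2 window held 1 GGGAA, at -228 from the start. The Myo6 window held 2, at -221 and -124, the Lrrn4 window 4, at -197, -119, -51 and -37, and the 5730422E09Rik window 2, at -22 and 6. Every window but that of Crispld2 held 1 full TGGGAA.

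The 16 genes with a RefSeq promoter have 22 such windows, and motifs were counted in the first listed window of each gene, set beside the first window of all 27025 genes of the RefSeq table. TGGGAA (or TTCCCA) was found in 7 of the 16, or 43.75%, against 25.5% of all genes, and the 7 were Myo6, Lrrn4, 5730422E09Rik, Ccdc109b, B230120H23Rik, Pafah2 and Lcn4. The shorter GGGAA (or TTCCC), which lies within every TGGGAA, was found in 13, or 81.3%, against 62.3% of all genes. Of other motifs, TGTGGT (or ACCACA), the RUNX core, was in 2 (12.5% against 16.9%). CAGCTG, an E box that is its own reverse complement, was in 3 (18.8% against 16.1%), and TATAAA (or TTTATA), the TATA box, was in 3 (18.8% against 14.2%). Counting a gene with the motif in any of its windows gave 7 genes for TGGGAA, 14 for GGGAA, 3 for TGTGGT, 5 for CAGCTG and 3 for TATAAA. The GC content of the first windows had a median of 57.2% in the 16 genes, and that of all 32817 windows of the table was 52.7%. These shares describe letters in a window, and no binding was measured.

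Crispld2, Lamc1, Lrrn4 and 2210010C17Rik encode proteins that are secreted or sit at the cell surface. Crispld2 encodes a secreted protein with an LCCL domain that binds lipopolysaccharide. Its levels were 0.87, 1.23 and 0.84 RPKM in wild type (replicates 1, 2A and 2B, the order used throughout), 6.36 and 7.54 in ZnF1-/- and 0.38 and 0.62 in ZnF4-/-. The groups did not overlap, and both ZnF4-/- libraries were under every wild type library. The log2 difference from wild type, on the scale of log2 RPKM plus 0.5, was 2.34 ± 0.21 (SE) in ZnF1-/- and -0.57 ± 0.21 in ZnF4-/-, and the mean was 13.9 times as high in ZnF1-/- as in ZnF4-/-. Crispld2 lies at chr8:122516338-122576693 on the plus strand (build mm9).

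Lamc1 encodes the laminin gamma-1 chain, a part of most basement membrane laminins. It stood at 2.57, 4.04 and 4.08 RPKM in wild type, 5.86 and 7.49 in ZnF1-/- and 0.86 and 1.58 in ZnF4-/-. The 3 groups were separate, with wild type in the middle. Against a wild type mean of 3.56 ± 0.86 (SD, n = 3), the mean was 1.87 times as high in ZnF1-/- and 0.342 times as high in ZnF4-/-.

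Lrrn4, a transmembrane leucine-rich repeat protein known as a marker of mesothelium in mouse, was at 0.34, 0.51 and 0.76 RPKM in wild type, 1.66 and 1.91 in ZnF1-/- and 0.27 and 0.57 in ZnF4-/-. Its mean over the 7 libraries was under 1 RPKM, so it was not among the genes tested. 2210010C17Rik, named Igsf23 by RefSeq and a member of the immunoglobulin superfamily, was at 6.29, 8.37 and 10.75 RPKM in wild type, 17.88 and 19.48 in ZnF1-/- and 8.77 and 11.23 in ZnF4-/-. In both, the ZnF4-/- libraries overlapped with wild type.

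Plekhg3, Myo6 and Afap1 act on the actin cytoskeleton, and in all 3 the ZnF4-/- libraries overlapped with wild type. Plekhg3, an exchange factor that activates small GTPases that shape the cytoskeleton, was at 1.95, 2.35 and 2.08 RPKM in wild type, 6.05 and 7.34 in ZnF1-/- and 2.28 and 2.34 in ZnF4-/-. Its log2 difference was 1.45 ± 0.16 in ZnF1-/- and 0.10 ± 0.16 in ZnF4-/-. Both ZnF1-/- libraries were far above a tight group of the other 5. Myo6, the myosin that moves cargo towards the minus end of actin filaments, was at 0.81, 0.69 and 0.99 RPKM in wild type, 2.25 and 3.17 in ZnF1-/- and 0.58 and 1.03 in ZnF4-/-. Afap1, an actin filament binding adaptor of the Src kinase, was at 6.63, 7.44 and 6.89 RPKM in wild type, 13.06 and 12.64 in ZnF1-/- and 6.80 and 6.64 in ZnF4-/-. Afap1 had the lowest relative spread of these, with 12.8 ± 0.30 (SD, n = 2) in ZnF1-/- against 6.99 ± 0.41 (n = 3) in wild type.

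Receptors, channels and signalling proteins made up 6 of the 21. Il1rl2, the receptor chain for interleukin 36, was at 4.31, 3.53 and 3.49 RPKM in wild type, 6.40 and 6.52 in ZnF1-/- and 2.75 and 2.54 in ZnF4-/-. B230120H23Rik, which RefSeq names Map3k20, encodes the ZAK kinase of the ribotoxic stress response, and was at 3.02, 2.38 and 2.36 in wild type, 4.92 and 4.30 in ZnF1-/- and 1.51 and 1.33 in ZnF4-/-. In both genes the ZnF4-/- libraries were under every wild type library, with means at 0.700 and 0.549 times the wild type mean. Ccdc109b, named Mcub by RefSeq, encodes a subunit that dampens the mitochondrial calcium uniporter. It was at 2.50, 3.88 and 3.80 RPKM in wild type, 5.54 and 10.03 in ZnF1-/- and 2.74 and 4.55 in ZnF4-/-. Its ZnF1-/- libraries differed from each other more than the wild type libraries did, and replicate 1 was the lower library in each group.

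Chrnb1, the beta subunit of the muscle acetylcholine receptor, was at 1.93, 2.63 and 2.25 RPKM in wild type, 3.96 and 3.94 in ZnF1-/- and 2.47 and 2.03 in ZnF4-/-. Sv2a, a synaptic vesicle glycoprotein, was at 0.81, 1.05 and 0.79 in wild type, 1.45 and 2.03 in ZnF1-/- and 0.96 and 0.65 in ZnF4-/-. Gng13, a G protein gamma subunit of taste and olfactory cells, was at 0.97, 0.97 and 0.89 in wild type, 1.54 and 1.47 in ZnF1-/- and 0.72 and 1.21 in ZnF4-/-. All 3 were low genes whose ZnF4-/- libraries overlapped with wild type. Gng13 shares 399 exon bases with Chtf18 on the other strand, and the strand of the reads is not given, so reads of both cannot be told apart there. Chtf18 was at 7.10 ± 2.0 RPKM in wild type (SD, n = 3), 7.49 ± 1.9 in ZnF1-/- (n = 2) and 5.71 ± 1.0 in ZnF4-/- (n = 2).

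Car2, Ppt1, Pafah2 and Lcn4 encode enzymes or a carrier of small molecules. Car2, a cytosolic carbonic anhydrase that is abundant in red cells and osteoclasts, was at 3.34, 4.40 and 4.50 RPKM in wild type, 8.64 and 13.31 in ZnF1-/- and 4.30 and 4.48 in ZnF4-/-. The ZnF4-/- values lay inside the wild type range. Ppt1, the lysosomal palmitoyl-protein thioesterase lost in infantile neuronal ceroid lipofuscinosis, was the most abundant of the 21. It was at 66.73, 66.93 and 61.57 RPKM in wild type, 91.92 and 94.15 in ZnF1-/- and 55.66 and 55.16 in ZnF4-/-. The groups were separate and their spreads narrow, with SD of 3.0, 1.6 and 0.35. Ppt1 shares 129 exon bases with Cap1 on the other strand, which was at 153.9 ± 20, 162.0 ± 18 and 132.5 ± 18 RPKM in the same groups.

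Pafah2, a cytosolic hydrolase of platelet activating factor and oxidised phospholipids, was at 1.48, 2.06 and 2.04 RPKM in wild type, 2.99 and 2.84 in ZnF1-/- and 1.75 and 1.35 in ZnF4-/-. Lcn4, a lipocalin of the vomeronasal organ and nasal glands, was at 1.21, 1.29 and 0.79 in wild type, 1.82 and 1.77 in ZnF1-/- and 0.81 and 0.56 in ZnF4-/-. In each, 1 ZnF4-/- library was under every wild type library and the other was within their range.

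The non-coding members were 5730422E09Rik, E330020D12Rik, Mir32 and Rps4y2. 5730422E09Rik, a long non-coding RNA named Mm2pr by RefSeq, was at 2.76, 3.29 and 2.69 RPKM in wild type, 6.17 and 5.95 in ZnF1-/- and 0.39 and 0.76 in ZnF4-/-. It was the member with the lowest ratio of the ZnF4-/- mean to the wild type mean, 0.197, and its log2 difference was 0.95 ± 0.20 in ZnF1-/- and -1.68 ± 0.20 in ZnF4-/-. E330020D12Rik, also a long non-coding RNA, was at 1.37, 0.81 and 0.78 RPKM in wild type, 2.08 and 2.13 in ZnF1-/- and 0.22 and 0.36 in ZnF4-/-. Both RNAs had separate groups in the order ZnF4-/-, wild type, ZnF1-/-.

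Rps4y2, a transcribed pseudogene of ribosomal protein S4 named Rps4l by RefSeq, was at 0.37, 1.02 and 0.74 RPKM in wild type, 1.34 and 2.15 in ZnF1-/- and 0.51 and 0.92 in ZnF4-/-. Reads that match other copies of S4 could have been split among them, so its level is uncertain. Rps4x, the gene on the X chromosome, was at 13.33, 3.24 and 2.67 RPKM in wild type, 5.64 and 2.69 in ZnF1-/- and 4.70 and 2.91 in ZnF4-/-.

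Mir32 is a microRNA whose hairpin row covers 71 bases. It was listed at 0, 0 and 0.03 RPKM in wild type, 3.25 and 0.44 in ZnF1-/- and 0 and 0.04 in ZnF4-/-. Both ZnF1-/- libraries were above the rest, and they differed greatly from each other. A value of 0.03 RPKM over 71 bases is too small to be 1 whole read of a library of usual depth, so the table holds parts of reads and such values have no known read number. Mature microRNAs are too short and lack the poly(A) tail that these libraries selected, so such a row reports reads over the hairpin and not the mature microRNA. D730040F13Rik, the host transcript of Mir32, was at 8.58 ± 1.2 RPKM in wild type (SD, n = 3), 9.66 ± 1.0 in ZnF1-/- (n = 2) and 8.09 ± 0.52 in ZnF4-/- (n = 2), and its exons share 0 bases with the hairpin.

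The mature sequence of miR-32-5p is given beside 4 microRNAs of the table with the same seed, to show which other rows could be set beside it. Sequences are from RefSeq (GRCm38.p6), 5′ to 3′, and capitals mark the seed, bases 2 to 8.
miR-32-5p: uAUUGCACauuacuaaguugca
miR-25-3p: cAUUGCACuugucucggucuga
miR-92a-3p: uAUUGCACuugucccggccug
miR-363-3p: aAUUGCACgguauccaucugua
miR-367-3p: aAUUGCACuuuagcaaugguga
None of the other 4 hairpin rows, those of Mir25, Mir92-1, Mir363 and Mir367, followed the pattern of Mir32. Mir25 was at 1.95, 2.09 and 1.81 RPKM in wild type, 1.72 and 3.37 in ZnF1-/- and 0.02 and 0.72 in ZnF4-/-. Mir367 was at 0, 0.19 and 0.22 in wild type, 4.53 and 0.45 in ZnF1-/- and 3.65 and 0.70 in ZnF4-/-. Both ZnF1-/- values of Mir92-1 and 1 of those of Mir363 were within the wild type range, and the other of Mir363 was 0.

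The rule set only an upper limit on ZnF4-/-, and below it the 21 genes were of 2 kinds. In 7 genes both ZnF4-/- libraries lay under every wild type library: Crispld2, 5730422E09Rik, E330020D12Rik, Il1rl2, Lamc1, B230120H23Rik and Ppt1. All 7 are among the 19 that passed the expression filter, and 10.6% of all tested genes had both ZnF4-/- libraries under every wild type library. Since the rule kept out genes that stood high in ZnF4-/-, nothing is read from this share. In the other 14 at least 1 ZnF4-/- library was at or above the lowest wild type library. In 5 of these, 2210010C17Rik, Ccdc109b, Gng13, Mir32 and Myo6, 1 ZnF4-/- library exceeded the highest wild type library. In Gng13 and Myo6 the other ZnF4-/- library was under every wild type library, so neither lay within the wild type range. The ZnF4-/- mean was at or under 50% of the wild type mean in 3 genes, 5730422E09Rik, E330020D12Rik and Lamc1. Over the 21 the median log2 difference was 0.84 in ZnF1-/- and -0.09 in ZnF4-/-, and over all tested genes it was -0.02 and -0.05. Both comparisons share the wild type libraries.

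**Figure D2:**
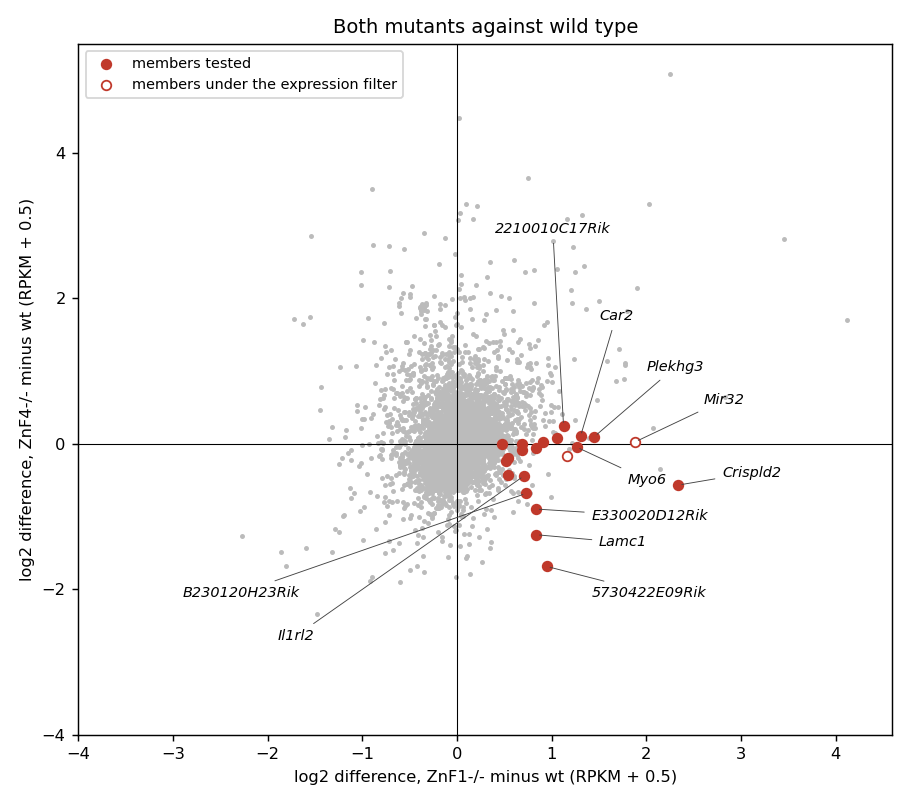
Log2 difference from wild type in ZnF1-/- (horizontal) and ZnF4-/- (vertical) for the tested genes (grey) and the 21 genes (red, open where under the expression filter). The 21 genes lie at 0.47 or more on the horizontal axis by choice, and spread on the vertical axis from 0.25 for 2210010C17Rik down to -1.68 for 5730422E09Rik.

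Of the 21 genes, 19 were tested in a limma fit over all 10498 genes, and Mir32 and Lrrn4 were under its filter. At an adjusted p under 0.05, 2 of the 19, Crispld2 and Plekhg3, were called higher in ZnF1-/- than in wild type, beside 0.0762% of all tested genes. With the replicate number as a block the count was 9, beside 0.572%, and added Afap1, 2210010C17Rik, Car2, 5730422E09Rik, Lamc1, Ccdc109b and Myo6. In ZnF4-/- against wild type, 5730422E09Rik was called lower, beside 0.305% of tested genes, and with the block 4 were, beside 2.12%, adding Lamc1, E330020D12Rik and B230120H23Rik. In ZnF1-/- against ZnF4-/-, 8 were called higher in ZnF1-/-, beside 0.324%, and 15 with the block, beside 2.1%. Leaving out any 1 library left 0 or 1 of the calls against wild type in ZnF1-/-. Between the mutants it left 4 calls without ZnF1-/- replicate 1, 3 without ZnF1-/- replicate 2, 2 without ZnF4-/- replicate 1 and 3 without ZnF4-/- replicate 2. Without wild type replicate 1, 2 genes were called lower in ZnF4-/-. The rule used each of these contrasts, so nothing is read from these counts.

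The 21 genes were spread over 12 chromosomes. The closest neighbours among them were Lamc1, at chr1:155066052-155179916 (mm9, minus strand), and E330020D12Rik, at chr1:155251957-155255726 on the same strand, with a gap of 72.0 kb. The next closest pair, Pafah2 and Ppt1, was 11.42 Mb apart. Lamc1 and E330020D12Rik held the same order of groups, ZnF1-/- above wild type above ZnF4-/-, with log2 differences of 0.83 and 0.83 in ZnF1-/- and of -1.25 and -0.90 in ZnF4-/-. Neither of the next 2 genes described here shared it. Dhx9, an RNA helicase beyond E330020D12Rik, was at means of 102.9, 94.2 and 88.7 RPKM in wild type, ZnF1-/- and ZnF4-/-, and Npl, a lyase of sialic acid, had log2 differences of 0.30 in ZnF1-/- and 0.16 in ZnF4-/-.

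**Figure D3:**
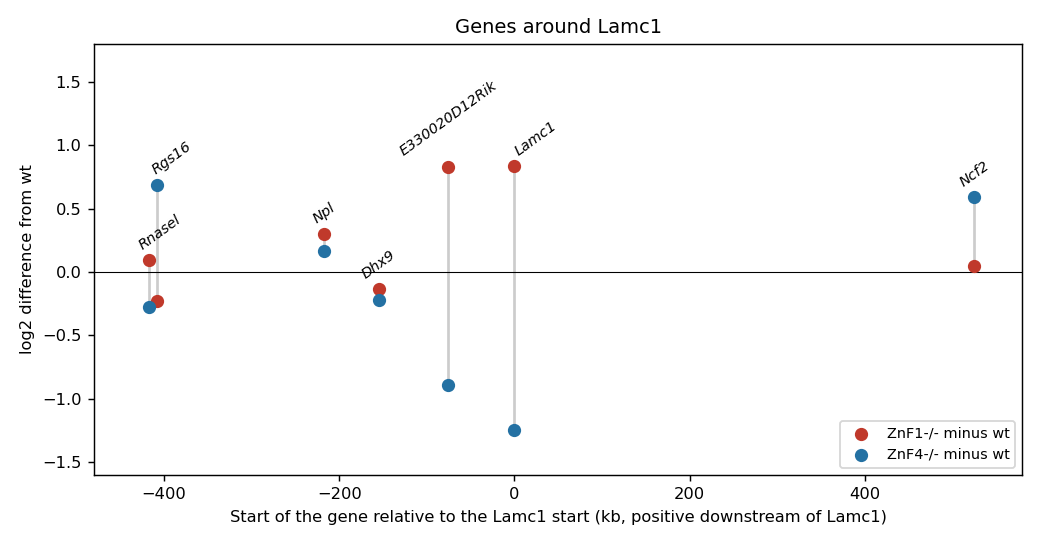
Log2 difference from wild type in ZnF1-/- (red) and ZnF4-/- (blue) of 7 genes around Lamc1, each with a mean of 1 RPKM or more in at least 1 group, against the distance of their start from the Lamc1 start in kb. Lamc1 and E330020D12Rik have both a red point above 0.8 and a blue point under -0.8, which no other gene drawn has.

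Around the whole set, 57 tested genes that are not among the 21 lay within 100 kb of a gene of the set. Of the 21, 17 had a tested neighbour, and for Lamc1 the only one was E330020D12Rik, itself of the set. Of the 57, 0 were called in ZnF1-/- by limma, beside 0.0762% of all tested genes called higher and 0.00953% lower. In ZnF4-/- 0 were called, beside 2.24% higher and 0.305% lower. With so few calls over all genes, the 0 in ZnF1-/- is not read as a result. At an unadjusted p under 0.05, 1 was higher and 0 lower in ZnF1-/-, where 2.12% and 1.72% of all tested genes were. In ZnF4-/-, 2 were higher and 3 lower, beside 7.01% and 3.11%. With the replicate block, 0 were called in ZnF1-/-, beside 0.572% of all tested genes higher and 0.305% lower. In ZnF4-/- with the block, Paqr7 was called higher and Uspl1 lower, beside 6.1% and 2.12%. The median log2 difference of the 57 was 0.08 in ZnF1-/-, with a range of -0.36 to 0.66 and 56 of 57 within 0.5 of wild type, and -0.08 in ZnF4-/-.

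Relatives and partners of the protein-coding genes were gathered in 14 lists, made after the 21 were known. Apart from the 21 themselves they held 124 genes of the table, of which 62 were tested. In ZnF1-/-, 0 of the 62 were called higher and 0 lower, beside 0.0762% and 0.00953% of all tested genes. At such shares a count of 0 is not read as a result. The median log2 difference in ZnF1-/- was 0.01. With the replicate block Myo10 alone was called, higher, beside 0.572% of all tested genes. At an unadjusted p under 0.05 in the limma fit, 4 were higher and 1 lower, beside 2.12% and 1.72% of all tested genes. In ZnF4-/-, 5 were called higher, Gng2, Il18r1, Lamb2, Myo10 and Myo1e, beside 2.24% of tested genes, and 0 lower, beside 0.305%. There 9 were higher and 2 lower at an unadjusted p under 0.05, beside 7.01% and 3.11%. With the block 11 were called higher in ZnF4-/-, beside 6.1% of tested genes, and 0 lower, beside 2.12%. Myo10, an unconventional myosin of filopodia, had means of 5.08 RPKM in wild type, 8.99 in ZnF1-/- and 11.1 in ZnF4-/-.

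Among laminin relatives of Lamc1, Lamb2, the beta-2 chain, was at means of 0.26, 0.65 and 3.83 RPKM in wild type, ZnF1-/- and ZnF4-/-, an order opposite to that of Lamc1 in ZnF4-/-. The laminin receptor subunit Itgb1 was at 36.4, 40.6 and 48.7 and Itga6 at 15.8, 16.2 and 22.6 in the same groups. Around Ccdc109b, the pore subunit Ccdc109a was at 10.7, 10.1 and 10.8 RPKM and the gatekeeper Cbara1 at 21.7, 20.9 and 18.3. Ccdc109b had the highest ratio in ZnF1-/- among the uniporter genes named. The rule chose it for a high ratio, so nothing is read from that rank. Around Ppt1, the lysosomal peptidase Tpp1 was at 24.3, 23.8 and 25.5, Ppt2 at 29.8, 31.2 and 28.4, and the protease Ctsd at 164, 148 and 131. Others of the lysosomal list were higher in both ZnF1-/- libraries than in every wild type library without being called. Grn, progranulin, was at 6.80, 10.6 and 12.3, Mfsd8, a lysosomal membrane protein, at 2.83, 4.02 and 3.28, and Cln6, of the endoplasmic reticulum, at 18.4, 21.7 and 23.8. The median log2 difference of the 10 tested genes of that list, Ppt1 included, was 0.22 in ZnF1-/-. Il1rap, the co-receptor of Il1rl2, was at 2.85, 3.03 and 3.55, and Car15 and Car14, carbonic anhydrases as Car2 is, were at 3.55, 2.88 and 2.96 and at 1.02, 1.09 and 0.91. By limma without the block, the related genes named here were not called in ZnF1-/-, and neither were Lamc1, Ccdc109b, Ppt1, Il1rl2 and Car2 themselves. Of all tested genes 0.0762% were called higher and 0.00953% lower, so nothing is read from this.

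Of the 35 gene lists of cell types, pathways and families, 30 held no gene called in ZnF1-/- by limma. The other 5 each held 1 gene called higher, beside 0.0762% of all tested genes. These were Dkkl1 of the Wnt list, Peli2 of the Pellino and IRAK list and Fam163b of the FAM163 family. The others were Crispld2 of the CRISPLD family and Plekhg3 of the PLEKHG exchange factors, both members of the set described here. The lists were chosen with earlier results of these data known, so nothing is read from how many lists held a call. The thymus itself was plain in its double-positive thymocyte markers, which summed to 3197 to 4025 RPKM in wild type, 3489 to 3969 in ZnF1-/- and 2612 to 3176 in ZnF4-/-. None of the 17 cell type lists held a call in ZnF1-/- by limma, beside 0.0762% of all tested genes called higher and 0.00953% lower. The tested markers numbered 0 for fibroblasts, 1 each for endothelium and neurons and 2 for skeletal muscle. With so few calls and so few markers tested, nothing is read from this. Of the 72 tested genes of these lists, 4 were higher and 9 lower at an unadjusted p under 0.05, beside 2.12% and 1.72% of all tested genes. With the replicate block 2 were called higher, Cd44 and Cd79b, beside 0.572%. Another 5 were called lower, among them Blk, Cd79a, Ms4a6b and Sox13, beside 0.305%.

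Several of the 21 are textbook genes of other tissues. Fibroblast markers summed to 0.46 to 0.51 RPKM in wild type, 0.21 to 0.61 in ZnF1-/- and 0.52 to 1.03 in ZnF4-/-, all 8 markers below 0.5. Endothelial markers, led by Pecam1, summed to 29.6 to 41.9, 35.0 to 39.2 and 38.0 to 42.3, with Kdr, Esam and Tie1 below 0.5. Pecam1 made up nearly all of that sum, and Cdh5, which defines endothelium, was at 0.04, 0.16 and 0.12 RPKM in wild type, 0.52 and 0.39 in ZnF1-/- and 0.88 and 0.22 in ZnF4-/-, above every wild type library in both mutants. The part of endothelium in the levels of the 21 was not tested. Neuronal markers summed to 2.12 to 2.57, 1.54 to 1.71 and 1.90 to 2.02, with Stmn2 at 0.02 or less, and were lower in ZnF1-/- than in every wild type library. Muscle markers summed to 10.9 to 16.9, 13.5 to 15.6 and 8.83 to 10.02, with Ckm, Acta1 and Des below 0.5. Erythroid markers summed to 12.2 to 32.0, 10.6 to 30.4 and 49.1 to 63.2. Fibroblast, endothelial, muscle and erythroid sums thus overlapped between wild type and ZnF1-/-.

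Summed markers lay above every wild type library in ZnF1-/- for 2 of the 17 cell type lists. Early progenitor and double-negative markers summed to 24.3 to 27.8 RPKM in wild type, 30.8 to 35.3 in ZnF1-/- and 22.6 to 28.1 in ZnF4-/-, with 4 of 10 markers tested. Il2ra, the largest of them, was at 17.21, 16.04 and 15.10 RPKM in wild type and 14.35 and 21.22 in ZnF1-/-, so its ZnF1-/- libraries disagreed. The other tested markers, Kit, Cd44 and Lyl1, were above every wild type library in both ZnF1-/- libraries. B cell markers summed to 20.9 to 25.97, 27.3 to 36.8 and 15.8 to 20.6, and Cd79b made up most of that, while Cd79a was at 1.40, 1.74 and 1.62 RPKM in wild type and 0.38 and 0.47 in ZnF1-/-. In the fit with the block, 0.305% of all tested genes were called lower in ZnF1-/-, and Cd79a was among them. The part of early progenitors and B cells in the levels of the 21 was not tested. Sums lay below every wild type library in ZnF1-/- for gamma-delta and innate-like T cells (26.3 to 30.7 against 21.3 to 24.6), granulocytes (149 to 167 against 68.3 to 141) and neurons.

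The targeted gene, Ikzf1, was at 141.7, 175.4 and 169.5 RPKM in wild type, 183.0 and 194.3 in ZnF1-/- and 238.1 and 257.0 in ZnF4-/-. These values cover all exons, so they do not check which finger was removed. ZnF1-/- replicate 1 stood apart in the immediate-early genes Jun, at 16.09 RPKM against 2.11 in replicate 2 and 1.29 to 1.55 in wild type, and Dusp1, at 22.36 against 10.80 and 7.17 to 9.68. Xist, transcribed in female cells, read 90.6 to 109 RPKM where reads were 76 bp long and 0.03 or less where they were 50 bp. The Y-linked Ddx3y read 0.01 or less and 13.2 to 17.4, so the read length and the sex of the mice cannot be told apart.

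Within each read length the 21 genes stood higher in ZnF1-/-, as the rule implies. The ZnF1-/- value over the wild type value ran from 1.38 to 7.31 in the 76 bp libraries, with a median of 2.13 over the 20 genes that had a wild type value above 0. In the 50 bp libraries it ran from 1.39 in Pafah2 to 7.29 in Crispld2 over the same 20 genes, with a median of 2.01. Applied to 1 read length alone the rule took 168 genes at 76 bp and 109 at 50 bp, of which 23 were shared, or 13.7% and 21.1% of the lists. The 21 genes contributed 12 to the first list, 16 to the second and 9 to those shared.

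**Figure D4:**
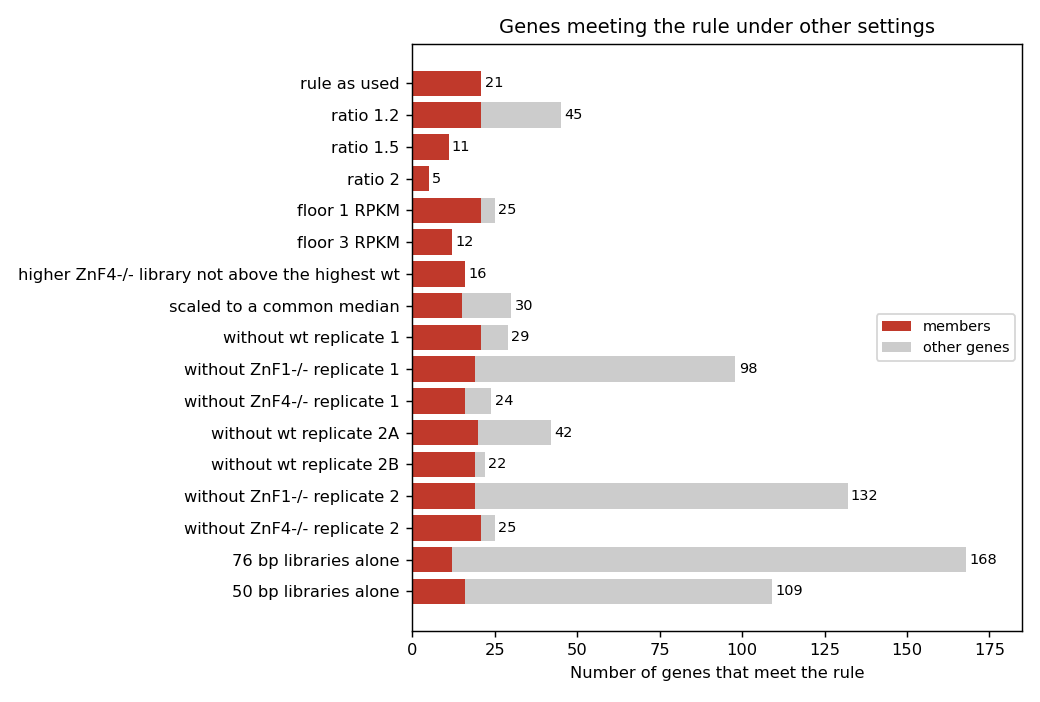
Number of genes that met the rule under each alternative setting, split into genes of the 21 and other genes. Without ZnF1-/- replicate 1 or 2 the rule took 98 or 132 genes, 19 of them from the 21 each time, and without wild type replicate 2A it took 42, while a ratio of 1.5 left 11 and a ratio of 2 left 5.

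A ratio of 1.2 took 45 genes, all 21 included, and ratios of 1.5 and 2 left 11 and 5. The 5 genes at a ratio of 2 were Crispld2, Mir32, Plekhg3, Myo6 and Lrrn4. A minimum of 3 RPKM in ZnF1-/- left 12 genes, without Lrrn4, Mir32 and Myo6 of these 5. Requiring that the higher ZnF4-/- library also not exceed wild type left 16, without Mir32 and Myo6. Scaling all libraries to a common median took 30 genes and lost B230120H23Rik, Gng13, Il1rl2, Lcn4, Plekhg3 and Ppt1, so membership of these 6 depends on the scaling.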

How the data were processed

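The deposited values were RPKM per gene for 7 libraries. Per the submitters' processing notes, reads were aligned with TopHat to mm9 and bedtools was used. Per the series design text, the authors counted exonic reads in SeqMonk with the NCBI annotation, kept genes seen in 1 or more libraries and removed duplicate transcripts. Versions, strand and read totals are not given in the sources used here. RPKM of low genes rests on few reads, and no interval can be given. Each gene's exon length, deposited beside the values, was used to describe the set.

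The rule was applied to the RPKM as deposited. For tests, the deposited RPKM were transformed to log2(RPKM + 0.5), which understates fold changes of low genes. Genes averaging 1 RPKM or more, 10498 in all, were fitted in limma 3.58.1 (R 4.3.3), with group as the only term, a trend in eBayes and Benjamini-Hochberg adjustment over all tested genes at a threshold of 0.05. SE come from that fit. The labels do not say that replicates are separate animals, so p-values measure the spread between these samples, which may be technical. Replicate number 1 marks the 76 bp run per the labels. Deviations from group means correlated at 0.489 to 0.737 over 8 pairs with the same number, so a fit with the number as a block was also made. Deviations within a group cancel out, so these pairs are not independent, and both pairs between the mutants gave the same value, 0.658.

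The members and lists were chosen with earlier results of these data known, and the lists of relatives after the members were known. All 21 members are named, since the rule for names took all of up to 30. Positions on mm9 were taken from the GENCODE M1 annotation (NCBIM37), promoters and microRNAs from RefSeq tables on GRCm38.p6. Some genes of the lists and neighbourhoods are not reported here. The fit was tested on simulated data. Alternatives were other pseudocounts, filters, scalings, the block, averaging of wild type 2A and 2B, and leaving out each library.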

Additional observations from a re-analysis of the deposited data

How the results depend on the processing

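The 21 differences between ZnF1-/- and wild type were above 0 in all 15 settings of the fit. The rule required both ZnF1-/- libraries above every wild type library, so nothing is read from that sign. The ZnF4-/- difference kept 1 sign in 11 of the 21 genes. In the limma fit, 9 genes were called in ZnF1-/-. That number was 3 with no filter, 5 with a filter of 2 RPKM, 17 and 14 with median and quantile scaling, 92 with the replicate block, 1 with wild type 2A and 2B averaged, and 1 to 10 when 1 library was left out. Of the 21, 2 were called higher in ZnF1-/-, against 0 with no filter, 1 with a filter of 2 RPKM, 9 with the block, 0 with 2A and 2B averaged, and 0 to 1 without 1 library. Crispld2 and Plekhg3 therefore each lose the call in some settings. The 1 gene called lower in ZnF4-/- became 2 under median and quantile scaling, 4 with the block and 1 to 2 without 1 library. The 8 called higher in ZnF1-/- than in ZnF4-/- became 15 with the block and 2 to 10 without 1 library. The rule took 45 genes at a ratio of 1.2, 11 at 1.5, 5 at 2 and 12 with a minimum of 3 RPKM, 168 and 109 in the 76 bp and 50 bp libraries alone, and 22 to 132 without 1 library. The cause of these moves was not tested, beyond fewer libraries or more genes entering by construction. Unknown depth limits the low genes most, and 8 of the 21 had a wild type mean under 1 RPKM.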
